A study of Homo sapiens with 2 samples.

Results

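The 37 genes described here run the uptake and breakdown of glucose and the transcriptional response to low oxygen. They comprise 2 glucose transporters, 17 core enzymes from hexokinase to lactate dehydrogenase, 3 enzymes that make or remove fructose 2,6-bisphosphate, a signal, 2 lactate transporters, 2 HIF alpha subunits, 3 HIF prolyl hydroxylases and 8 further genes widely used as HIF targets. EGLN1 and EGLN3, 2 of the hydroxylases, are HIF targets too and bring that list to 10. All were taken from the deposited table by gene symbol. All 37 were found, each on 1 row, among 28615 symbols. The levels come from messenger RNA of the colorectal cancer line HCT116, an established human line. One library was labelled an SRD5A1 knockdown, with "Dox" in its title, and one a control, with "KD" in its title. What these tags stand for, how SRD5A1 was lowered, whether the knockdown is a clone or a pool, and the oxygen and glucose in the medium were not given in the labels used here. With 1 library per group there is no spread between cultures, so no test is given, and every difference describes these 2 libraries only.

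Glycolysis splits glucose into pyruvate in the cytosol, and lactate dehydrogenase can reduce pyruvate to lactate, which leaves the cell through monocarboxylate transporters. Tumour cells often run this route with oxygen present. Hypoxia-inducible factors (HIF) pair an alpha subunit with ARNT. In oxygen, prolyl hydroxylases of the EGLN family mark the alpha subunit, VHL binds it and it is degraded; in hypoxia it persists and switches on genes for glucose uptake, most glycolytic enzymes, pH control, mitophagy and collagen modification. Because this control acts on protein stability, HIF alpha mRNA alone does not report the activity of the factor. Most glycolytic enzyme genes are themselves known HIF targets, so the separation into core enzymes and HIF targets is one of role.

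The knockdown library held 54740670 counts in all and the control library 41814981. SRD5A1, the targeted gene, was lower in the knockdown library, with 3119 counts (6.25 FPKM) there and 4101 counts (10.8 FPKM) in the control library, and did not reach a 2-fold difference. Mitochondrially encoded genes took 12.8% of the knockdown counts and 18.3% of the control counts. The epithelial markers EPCAM, CDH1, KRT8, KRT18 and KRT19 were expressed in both libraries, 6 of the 8 listed epithelial markers in the table being expressed, with a summed level of 1546 FPKM in the knockdown and 990.1 FPKM in the control; among them CDX2 (7.00 FPKM in the knockdown, 0.767 FPKM in the control) and KRT18 (346 FPKM in the knockdown, 74.5 FPKM in the control) were higher and EPCAM was at 30.2 FPKM in the knockdown and 39.7 FPKM in the control. VIL1 had 4 counts in the knockdown library and 0 in the control. The part of these differences in the results below was not tested, and in bulk RNA a change in the make-up of a culture and a change per cell cannot be told apart. The labels' protocol text also names adipose material: of 5 listed adipocyte markers 2 are in the table, PLIN1 with 0 counts in the knockdown library and 61 in the control and CIDEC with 16 in the knockdown library and 0 in the control, and neither was expressed. No leukocyte or endothelial marker was expressed, and COL1A1, at 2.39 FPKM in the knockdown and 4.02 FPKM in the control, was the one expressed fibroblast marker of 6.

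FPKM relates the fragments of a gene to its length and to the size of the library. Differences are in log2(FPKM + 1), knockdown minus control, a scale that understates changes at low levels. Genes with a mean of 1 FPKM or more over both libraries are called expressed. Those with a difference of 1 or more in size are called higher or lower. A difference of 1 is 2-fold in FPKM + 1, and 2-fold apart is used in that sense. A gene at a low level can therefore fall short of it while its FPKM or CPM ratio is beyond 2-fold. CPM relates a count to a library of 1000000 counts, and its ratios carry exact Clopper-Pearson 95% intervals, which cover counting error only.

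Of the 37 genes, 31 were expressed, and 5 of these passed the threshold as higher in the knockdown library: SLC2A1, PGAM1, PFKFB4, SLC16A3 and EGLN2. The other direction held 2 genes, ALDOC and P4HA1. The same threshold called 20.9% of all 10143 expressed genes higher and 6.83% lower, beside 16.1% and 6.45% of the 31, which is near the shares found across the transcriptome. At a difference of 0.5, 10 of the 31 were higher and 6 lower, beside 40.8% and 16.3% of all expressed genes. The median difference was 0.21 over the 31 genes and 0.30 over all expressed genes, whose 25th and 75th percentiles were -0.24 and 0.87. With the median ratio of expressed genes set to 1 the all-gene median was -0.02, and 3 of the genes were then higher and 4 lower, so a difference near 0.30 is not distinct from the shift of the whole library. On the other side of the threshold by a small margin lay SLC2A3 and HK2, each at -0.99, and inside it by a small margin PGAM1 at 1.01.

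**Figure D1:**
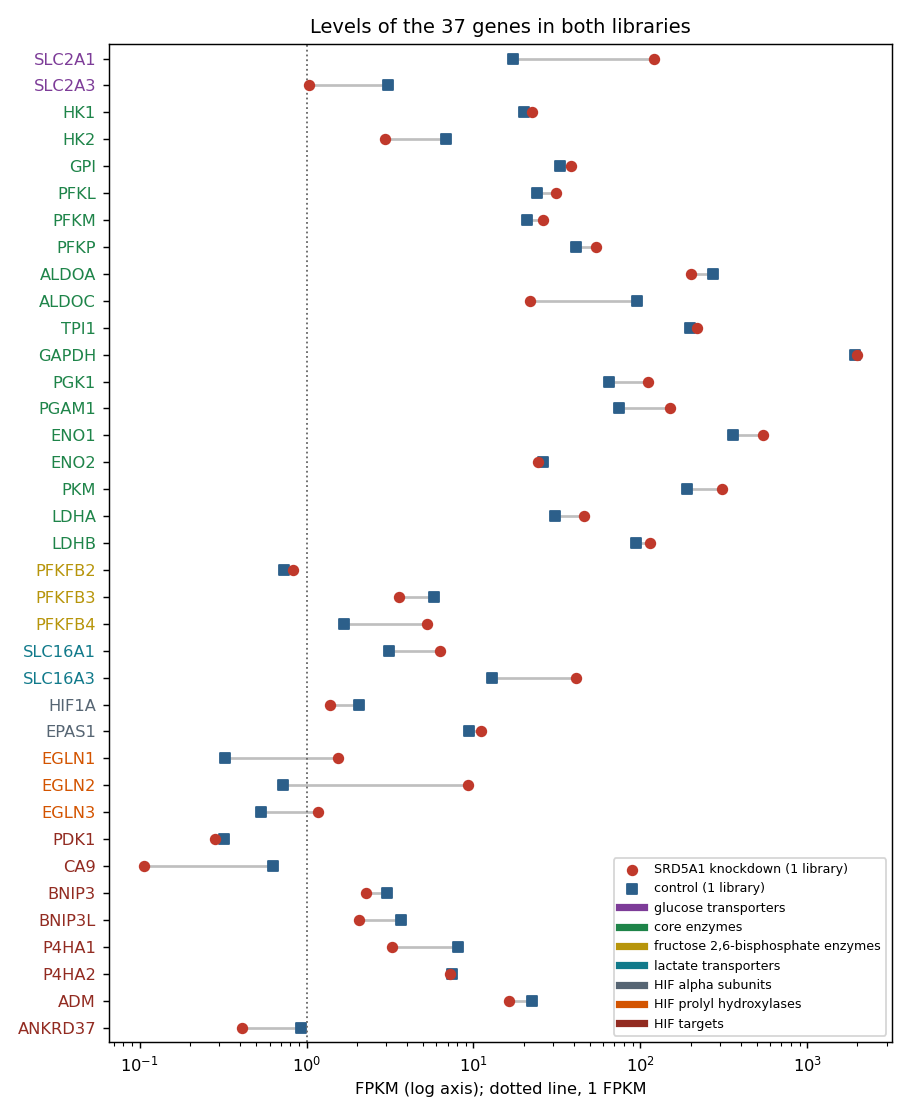
FPKM of the 37 genes (log axis) in the SRD5A1 knockdown library (circles) and the control library (squares), 1 library each, with gene names coloured by role. The widest gaps are those of EGLN2, SLC2A1 and EGLN1, higher in the knockdown library, and of CA9 and ALDOC, lower; CA9 lies below 1 FPKM in both libraries.

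The stretches of 250 bases before the annotated start are shown for the called genes whose RefSeq start lies within 308 bases of the start of their row, because ACGTG, one of the 2 forms of the core of the HIF response element beside GCGTG, can be read in them directly. Letters are from RefSeq on GRCh38.p14, in the direction of transcription. Capitals mark ACGTG on either strand. CACGTG holds it on both strands and counts as 2 matches. SLC2A1 (chr1:42958869-42959118, minus strand), SLC16A3 (chr17:82228185-82228434, plus strand) and EGLN2 (chr19:40798941-40799190, plus strand) were higher in the knockdown library, and ALDOC (chr17:28576896-28577145, minus strand) and P4HA1 (chr10:73096867-73097116, minus strand) lower.
SLC2A1: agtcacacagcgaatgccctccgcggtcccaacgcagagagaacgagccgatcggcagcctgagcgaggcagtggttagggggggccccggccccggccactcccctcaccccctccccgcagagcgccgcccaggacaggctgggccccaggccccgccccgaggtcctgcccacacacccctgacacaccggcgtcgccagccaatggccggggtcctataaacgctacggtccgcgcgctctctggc
SLC16A3: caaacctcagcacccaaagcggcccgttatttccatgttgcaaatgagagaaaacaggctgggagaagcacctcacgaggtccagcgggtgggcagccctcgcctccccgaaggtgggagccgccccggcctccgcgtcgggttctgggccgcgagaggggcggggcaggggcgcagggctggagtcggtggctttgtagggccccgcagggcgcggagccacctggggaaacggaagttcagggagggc
EGLN2: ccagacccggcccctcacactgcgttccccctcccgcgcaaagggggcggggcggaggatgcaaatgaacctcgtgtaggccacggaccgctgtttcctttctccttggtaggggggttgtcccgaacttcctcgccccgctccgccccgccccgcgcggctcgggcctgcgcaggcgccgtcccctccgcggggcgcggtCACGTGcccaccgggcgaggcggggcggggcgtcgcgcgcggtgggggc
ALDOC: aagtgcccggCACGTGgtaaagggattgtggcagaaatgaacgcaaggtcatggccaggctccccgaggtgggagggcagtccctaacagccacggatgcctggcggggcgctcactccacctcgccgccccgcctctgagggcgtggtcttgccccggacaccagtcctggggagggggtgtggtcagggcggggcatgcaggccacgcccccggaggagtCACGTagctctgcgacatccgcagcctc
P4HA1: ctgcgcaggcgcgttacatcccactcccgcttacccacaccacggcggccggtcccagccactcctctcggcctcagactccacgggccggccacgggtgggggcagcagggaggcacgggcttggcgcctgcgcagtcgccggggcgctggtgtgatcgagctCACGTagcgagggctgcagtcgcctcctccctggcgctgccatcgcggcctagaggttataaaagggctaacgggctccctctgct
The windows of both lower genes held the motif, with 3 matches in ALDOC and 1 in P4HA1. Among the 5 higher genes, the EGLN2 window held 2 matches, both in 1 CACGTG, and the windows of SLC2A1, SLC16A3, PGAM1 and PFKFB4 held none. RefSeq windows were matched for 33 of the 37 genes, and not for SLC2A3, PFKFB2, SLC16A1 and BNIP3L. ACGTG was present in 14 of these 33 windows (42.4%), in 8 of 17 core enzymes (47.1%) and in 5 of 9 HIF targets (55.6%), beside 18.5% of all 35116 windows and 24.2% of 7054 windows of expressed symbols. The other form, GCGTG, also sought on both strands, was less frequent in them than in windows of expressed symbols: 11 of the 33 held it (33.3%), 5 of the 17 core enzymes (29.4%) and 2 of the 9 HIF targets (22.2%), beside 32.2% of all windows and 47.6% of those of expressed symbols. LDHA, the muscle-type subunit of lactate dehydrogenase, had the most matches, 5. The 11 expressed genes with the motif had a median difference of -0.09 and ranged from -2.07 (ALDOC) to 2.57 (EGLN2). The 17 without it had a median of 0.32 and ranged from -0.57 (PFKFB3) to 2.74 (SLC2A1). These 2 medians have no counterpart here over all expressed genes, so the contrast cannot be called particular to the genes described. Some of the 33 windows lie far from the start of their row, as for EGLN3 (271879 bases) and PGK1 (193509 bases). A match is a description of these letters, and response elements outside this window are not seen.

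The transporters that admit glucose moved apart. SLC2A1 encodes GLUT1, the widespread basal glucose transporter, and is a row of chromosome 1, 42925375 to 42959176 (ENSG00000117394). It was at 120.3 FPKM (37130 counts) in the knockdown and 17.2 FPKM (4055 counts) in the control, a CPM ratio of 6.99 (6.77 to 7.23) and a difference of 2.74. It ranked 81 from the highest of the 10143 expressed genes, and among the 37 genes it was 7th by level in the knockdown and 18th in the control. SLC2A3 encodes GLUT3, a high-affinity glucose transporter abundant in neurons. It was at 1.04 FPKM (417 counts) in the knockdown and 3.06 FPKM (933 counts) in the control, with a CPM ratio of 0.341 (0.303 to 0.384) and a difference of -0.99. SLC2A3 has a near-identical paralogue, SLC2A14, so its count is uncertain. SLC2A3 held 0.858% of the summed FPKM of the pair in the knockdown and 15.1% in the control, and the ratio of SLC2A3 to SLC2A1 in the knockdown was 0.0488 times (0.0433 to 0.0550) that in the control. Such ratios within a library do not depend on how the libraries are scaled.

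The preparatory enzymes, from hexokinase to triose phosphate isomerase, mostly lay close to the all-gene median, with HK2 and both aldolases as exceptions. HK1, the ubiquitous hexokinase that first phosphorylates glucose, was at 22.5 FPKM in the knockdown and 20.1 FPKM in the control. HK2, the inducible hexokinase of muscle and many tumours, was at 2.96 FPKM (1175 counts) in the knockdown and 6.85 FPKM (2074 counts) in the control, a CPM ratio of 0.433 (0.403 to 0.465). HK2 supplied 11.6% of hexokinase FPKM in the knockdown and 25.4% in the control, and its ratio to HK1 changed by a factor of 0.386 (0.357 to 0.418). The opposite-strand row AC019069 held 232 counts in the knockdown library and 0 in the control. It overlaps HK2 only at the start of HK2, ending at position 74833987 where HK2 begins at 74833981. Whether counting used strand is not given, so reads over that short stretch may not be told apart. GPI, which interconverts glucose and fructose phosphates, was at 38.4 FPKM in the knockdown and 32.95 FPKM in the control.

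The phosphofructokinases, which commit sugar to glycolysis, were present in nearly the same proportions in both libraries. PFKL, PFKM and PFKP, named for liver, muscle and platelet, were at 31.3, 26.2 and 53.9 FPKM in the knockdown and at 24.0, 20.8 and 41.2 FPKM in the control, with differences of 0.37, 0.32 and 0.38. Their shares of the family were 28.1%, 23.5% and 48.4% in the knockdown and 27.9%, 24.2% and 47.9% in the control. The ratio of PFKL to PFKM in the knockdown was 1.04 times (0.999 to 1.08) that in the control, and that of PFKL to PFKP 0.998 times (0.965 to 1.03).

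The aldolases, which split fructose 1,6-bisphosphate, were both lower in the knockdown library. ALDOC, the aldolase best known from brain (ENSG00000109107, chromosome 17, 28573115 to 28576948), was at 22.0 FPKM (3749 counts) in the knockdown and 95.1 FPKM (12397 counts) in the control. Its CPM ratio was 0.231 (0.223 to 0.240) and its difference, -2.07, ranked 135 from the lowest of all expressed genes. By level it was 18th of the 37 genes in the knockdown and 6th in the control. ALDOA, the major form in muscle and most dividing cells, was at 203 FPKM in the knockdown and 273 FPKM in the control, a difference of -0.43. The same-strand row AC093512 overlaps ALDOA and held 14395 counts in the knockdown library and 3085 in the control; with it added, the ALDOA difference was -0.12 and the CPM ratio 0.895 (0.885 to 0.905). ALDOC held 9.78% of aldolase FPKM in the knockdown and 25.8% in the control, and its ratio to ALDOA changed by a factor of 0.312 (0.30004 to 0.324). TPI1, which interconverts the triose phosphates, was at 219.6 FPKM in the knockdown and 199 FPKM in the control.

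The payoff enzymes run from GAPDH to lactate dehydrogenase. A difference of 0.5 or more was found in 5 of them, not in GAPDH, ENO2 or LDHB, and in no preparatory enzyme in that direction. These were 5 of the 17 core enzymes, beside 40.8% of all expressed genes. The division into preparatory and payoff enzymes was not among the lists set for comparison. GAPDH, the NAD-dependent dehydrogenase often used as a reference gene, was first in both libraries, at 1984 FPKM in the knockdown and 1946 FPKM in the control, a CPM ratio of 1.02 (1.01 to 1.02). Its difference of 0.03 was positive with library totals and turned negative, down to -0.37, under 5 of the 12 alternatives tried. PGK1, the first ATP-forming kinase of the route, was at 110.8 FPKM in the knockdown and 65.0 FPKM in the control, a difference of 0.76. PGAM1, phosphoglycerate mutase (ENSG00000171314, chromosome 10, 97426191 to 97433444), was at 151 FPKM (25109 counts) in the knockdown and 74.5 FPKM (9438 counts) in the control. Its CPM ratio was 2.03 (1.98 to 2.08) and its difference 1.01, and it was short of 2-fold under 5 of 12 alternatives, with a lowest value of 0.62.

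ENO1, the enolase of most tissues, was at 542 FPKM in the knockdown and 357 FPKM in the control, and ENO2, the neuronal form, at 24.3 FPKM in the knockdown and 25.98 FPKM in the control. The ratio of ENO2 to ENO1 changed by a factor of 0.616 (0.594 to 0.638). PKM, the pyruvate kinase gene of non-liver tissues, was at 308 FPKM in the knockdown and 190.1 FPKM in the control, a difference of 0.69; its splice forms M1 and M2 are not separated in these values. LDHA was at 46.0 FPKM in the knockdown and 30.8 FPKM in the control. LDHB, the heart-type subunit, was the more abundant of the pair, at 114 FPKM in the knockdown and 94.4 FPKM in the control. LDHA supplied 28.8% of their summed FPKM in the knockdown and 24.6% in the control, and its ratio to LDHB in the knockdown was 1.24 times (1.20 to 1.28) that in the control. PGK1, PGAM1, ENO1, PKM and LDHA are thus the 5 core enzymes at a difference of 0.5 or more, and HK2 and ALDOC the 2 at -0.5 or less. Of all expressed genes, 40.8% and 16.3% were that far apart. With the median ratio set to 1, PGK1, ENO1, PKM and LDHA were at 0.39, 0.22, 0.32 and 0.20, and PGAM1 at 0.64.

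Over the 17 core enzymes, all expressed, the median difference was 0.27, beside 0.30 over all expressed genes. Of the 17, 13 were above 0 and 4 below (HK2, ALDOA, ALDOC and ENO2). Of all 10143 expressed genes, 6523 were above 0 and 3620 below. Against the all-gene median, 8 core enzymes lay above and 9 below. The median of the core enzymes was -0.11 with the median ratio set to 1 and -0.12 with upper quartiles set equal, so its sign follows the scaling. The 17 enzymes together took 1.76% of the counts (1.757 to 1.764) in the knockdown and 1.46% (1.460 to 1.468) in the control, or 2.02% and 1.79% with mitochondrially encoded genes left out of the totals. GAPDH, ENO1, PKM and ALDOA made up 74.9% of these counts in the knockdown library and 75.4% in the control. Of the counts of all 17 enzymes, GAPDH alone made up 32.2% in the knockdown and 38.0% in the control. ENO1 made up 19.4% of them in the knockdown and 15.4% in the control.

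**Figure D2:**
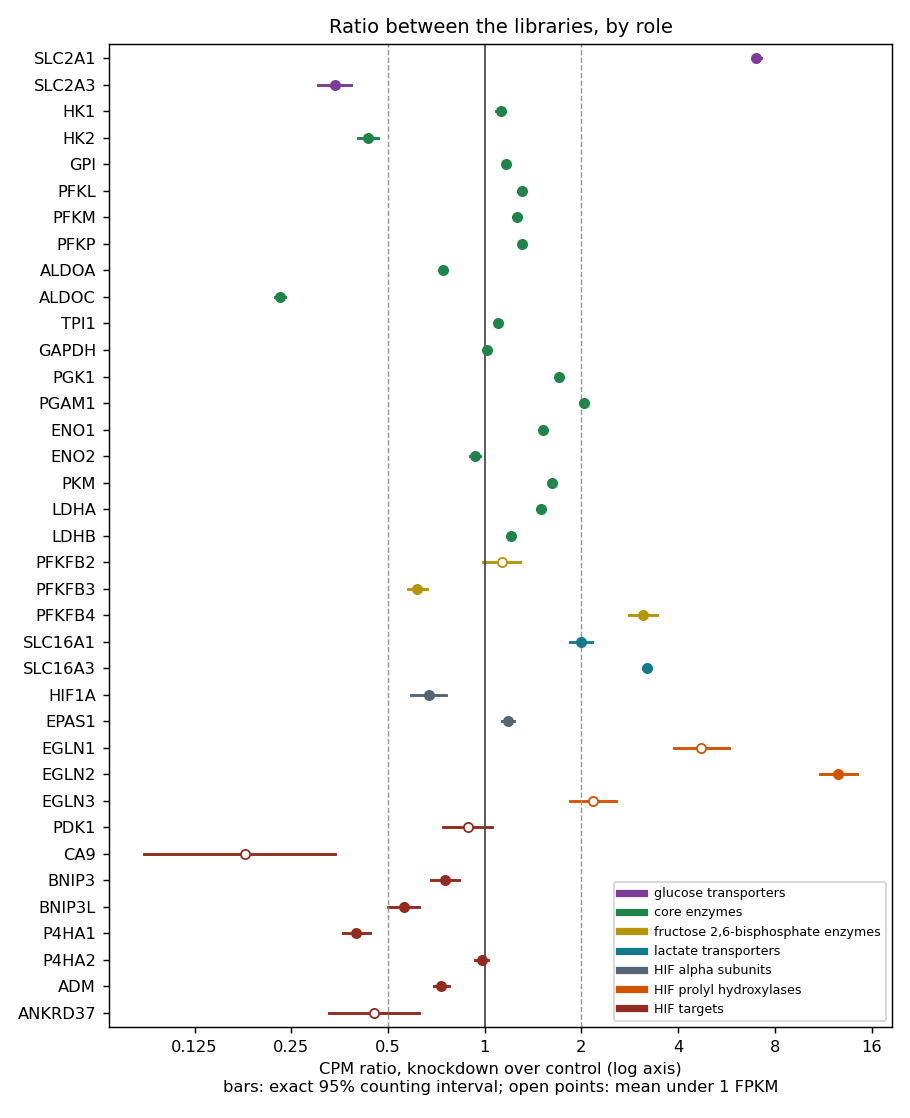
CPM ratio of each gene, knockdown over control (log axis), with exact 95% counting intervals. Open points are genes with a mean under 1 FPKM, and dashed lines mark a 2-fold CPM ratio, not a difference of 1 in log2(FPKM + 1). Most core enzymes lie between 1 and 2, with HK2, ALDOA, ALDOC and ENO2 below 1, while 8 of the 10 HIF targets lie below 1, EGLN1 and EGLN3 being the exceptions.

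PFKFB enzymes set the level of fructose 2,6-bisphosphate, which activates phosphofructokinase and is not an intermediate of the route, each having kinase and phosphatase activity. PFKFB3, the isoform with the strongest bias to the kinase, was at 3.58 FPKM in the knockdown and 5.80 FPKM in the control, with a CPM ratio of 0.617 (0.575 to 0.662). PFKFB4 (ENSG00000114268, chromosome 3, 48517684 to 48561972) went the other way, at 5.25 FPKM (2097 counts) in the knockdown and 1.68 FPKM (515 counts) in the control, with a ratio of 3.11 (2.82 to 3.43). PFKFB2 was not expressed by the threshold, at 0.826 FPKM in the knockdown and 0.730 FPKM in the control; the opposite-strand row YOD1, which overlaps it, had 49 counts in the knockdown library and 577 in the control. The most abundant of the 3 was therefore PFKFB4 in the knockdown, with 54.4% of their FPKM against 20.5% in the control, and PFKFB3 in the control, with 70.6% there against 37.1% in the knockdown. The PFKFB4 difference of 1.22 was below 1 with the median ratio set to 1 or upper quartiles set equal, where it was as low as 0.93.

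Both lactate transporters had more signal in the knockdown library. SLC16A3 encodes MCT4, the lactate exporter of glycolytic cells (ENSG00000141526, chromosome 17, 82228397 to 82261129). It was at 41.3 FPKM (24304 counts) in the knockdown and 12.9 FPKM (5786 counts) in the control, a CPM ratio of 3.21 (3.12 to 3.30) and a difference of 1.61. The opposite-strand row CSNK1D overlaps SLC16A3 and held 13827 counts in the knockdown library and 5415 in the control; its part in the SLC16A3 value was not tested. SLC16A1 encodes MCT1, which carries lactate and pyruvate in either direction. It was at 6.27 FPKM in the knockdown and 3.14 FPKM in the control, a CPM ratio of 1.996 (1.84 to 2.16) and a difference of 0.81. SLC16A3 was the major form in both libraries, with 86.8% of the pair in the knockdown and 80.4% in the control.

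**Figure D3:**
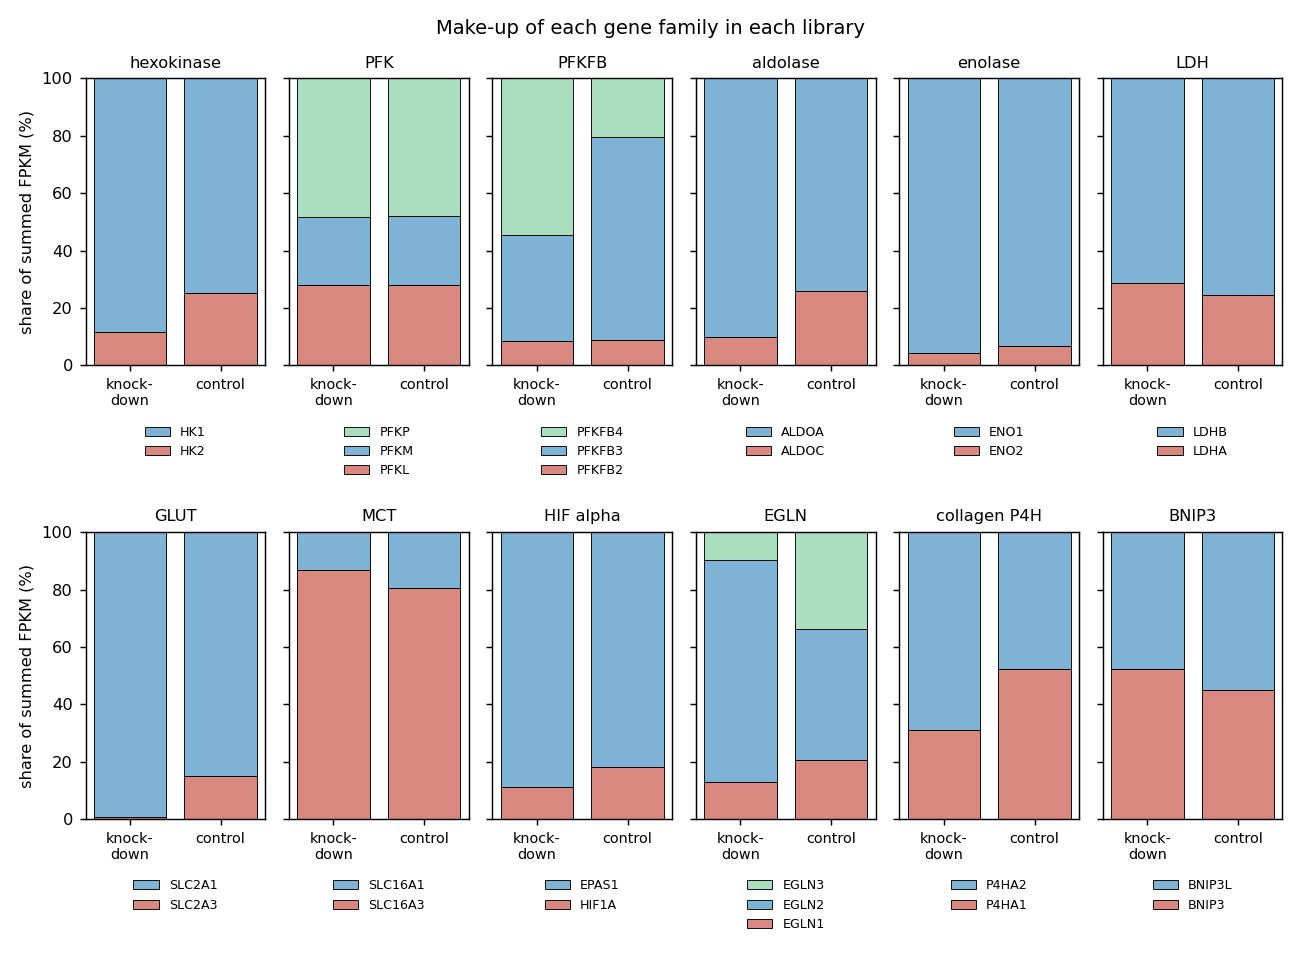
Share of the summed FPKM (%) held by each member of 12 gene families in the knockdown library (left bar) and the control library (right bar), 1 library each. The phosphofructokinases keep their make-up, while HK2, ALDOC, SLC2A3 and P4HA1 hold less of their families in the knockdown library, and PFKFB4 and EGLN2 hold more.

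Neither alpha subunit was 2-fold apart. HIF1A, the subunit found in nearly all tissues, was at 1.38 FPKM (470 counts) in the knockdown and 2.08 FPKM (536 counts) in the control, with a CPM ratio of 0.670 (0.591 to 0.760) and a difference of -0.37. EPAS1, which encodes HIF-2 alpha, was more abundant, at 11.1 FPKM in the knockdown and 9.36 FPKM in the control, a difference of 0.22 that turned negative under 3 of 12 alternatives. HIF1A was 11.1% of the pair in the knockdown and 18.1% in the control.

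The 3 oxygen-sensing hydroxylases all had higher levels in the knockdown library, from low control values. EGLN2, which encodes PHD1 (ENSG00000269858, chromosome 19, 40798996 to 40808434), was at 9.24 FPKM (3972 counts) in the knockdown and 0.722 FPKM (241 counts) in the control. Its CPM ratio was 12.6 (11.1 to 14.4), and its difference of 2.57 ranked 124 from the highest. The same-strand read-through row RAB4B-EGLN2, which overlaps EGLN2, went the other way, with 21 counts in the knockdown library and 378 in the control. With both rows added the ratio was 4.93 (4.53 to 5.37) and the difference 1.31, so the size of the difference depends on how reads were divided between the rows. EGLN1, which encodes PHD2, the main hydroxylase of HIF1A in normal oxygen, was at 1.55 FPKM (734 counts) in the knockdown and 0.326 FPKM (119 counts) in the control, with a ratio of 4.71 (3.88 to 5.77). EGLN3, which encodes PHD3, was at 1.17 FPKM (563 counts) in the knockdown and 0.535 FPKM (198 counts) in the control, with a ratio of 2.17 (1.84 to 2.57). Neither EGLN1 nor EGLN3 had a mean of 1 FPKM, and EGLN2 passed that threshold through the knockdown library alone. EGLN2 made up 77.3% of the FPKM of the family in the knockdown and 45.6% in the control.

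Most HIF targets had lower levels in the knockdown library. P4HA1, an alpha subunit of collagen prolyl hydroxylase (ENSG00000122884, chromosome 10, 73007217 to 73096974), was at 3.24 FPKM (657 counts) in the knockdown and 8.13 FPKM (1258 counts) in the control, with a CPM ratio of 0.399 (0.362 to 0.439) and a difference of -1.11. P4HA2, a second alpha subunit of the same enzyme, was at 7.25 FPKM in the knockdown and 7.41 FPKM in the control. P4HA1 was the less abundant of the pair in the knockdown, with 30.9% of their FPKM, and the more abundant in the control, with 52.3%, and its ratio to P4HA2 changed by a factor of 0.408 (0.367 to 0.453). ADM, the vasodilator peptide adrenomedullin, was at 16.4 FPKM in the knockdown and 22.4 FPKM in the control, a CPM ratio of 0.733 (0.694 to 0.775). BNIP3 and BNIP3L, receptors for mitophagy, were at 2.27 and 2.06 FPKM in the knockdown and at 3.02 and 3.68 FPKM in the control, with differences of -0.30 and -0.61.

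The other HIF targets were at the low end of detection. CA9, carbonic anhydrase 9 of the cell surface and a widely used hypoxia marker, had 12 counts (0.107 FPKM) in the knockdown and 51 counts (0.634 FPKM) in the control, a CPM ratio of 0.180 (0.087 to 0.342). ANKRD37 had 63 counts in the knockdown library and 106 in the control. PDK1, the kinase that restrains pyruvate dehydrogenase, was at 0.284 FPKM in the knockdown and 0.320 FPKM in the control, with a ratio of 0.885 (0.742 to 1.06) whose interval holds 1. Opposite-strand rows with more counts overlap CA9 (ARHGEF39, with 695 counts in the knockdown library and 112 in the control) and ANKRD37 (UFSP2, with 327 in the knockdown and 228 in the control). None of these 3 genes was expressed by the threshold.

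Set side by side, the 17 core enzymes had a median difference of 0.27 and the 5 expressed HIF targets (BNIP3, BNIP3L, P4HA1, P4HA2 and ADM) one of -0.43, a gap of 0.69. All 5 were below 0, 1 of them by 2-fold. P4HA2 was at -0.03, with a CPM ratio of 0.979 (0.934 to 1.03) whose interval holds 1. Of all 10143 expressed genes, 3620 were below 0. Counted without the expression threshold, the 10 HIF targets, which include PDK1, EGLN1 and EGLN3, had a median of -0.36, with 8 below 0 and EGLN1 and EGLN3 above. The median over all 22949 genes then counted was 0.03. The HIF target median minus this all-gene median was -0.39, beside -0.73 with the threshold. The 2 lists overlap, since the HIF targets reached from -1.11 to -0.03 and the core enzymes from -2.07 to 1.01. The median of the HIF targets ranged from -0.80 to -0.36 over 12 ways of processing and the gap from 0.61 to 0.72. Several of these alternatives scale all genes alike, so they can hardly move the gap.

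**Figure D4:**
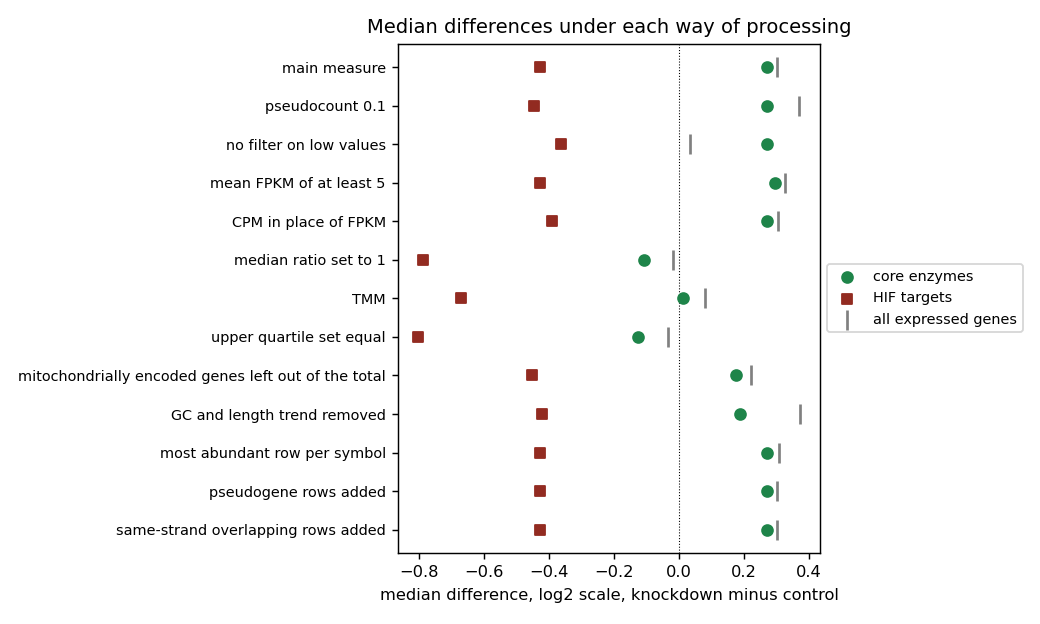
Median difference (log2 scale, knockdown minus control) of the core enzymes (circles), the HIF targets (squares) and all expressed genes (bars) under the main measure and 12 alternatives. The core enzymes stay close to the median of all genes except without a filter on low values and without the trend on GC and length, and cross 0 with the median ratio set to 1 and with upper quartiles set equal, while the HIF targets lie between -0.80 and -0.36 throughout.

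Other genes of the same routes were examined as lists. Of 39 other glycolysis genes in the table, 18 were expressed, with a median of 0.28. Higher were 4 of them, PGM1, SLC2A6, PGAM4 and ENO3, and lower 2, BPGM and PDP2. The last 5 of these are named after their values were seen. PGAM4 (3.67 FPKM in the knockdown, 0.639 FPKM in the control) and ENO3 (3.35 and 0.630 FPKM) were called expressed through the knockdown library alone. PDP2 (0.876 FPKM in the knockdown, 4.32 FPKM in the control) was called expressed through the control library alone. Of all expressed genes, 20.9% were higher and 6.83% lower, shares to be read beside the counts of this list and of those that follow. PGM1, phosphoglucomutase, was at 31.1 FPKM in the knockdown and 13.9 FPKM in the control. Other large differences at a mean of at least 5 FPKM were those of PGAM5 (0.80) and PDK2 (0.77), while MPC1, a subunit of the mitochondrial pyruvate carrier, was at -0.42. The pentose phosphate pathway, which draws off glucose phosphate for NADPH and ribose, had 6 expressed genes, none 2-fold apart, and a median of 0.68. TALDO1, PGD and H6PD differed by 0.84, 0.75 and 0.69, and TKT, transketolase, by -0.13. Of 10 expressed genes of the hexosamine and glycogen branches, GYS1 and PYGB were higher, GFPT1 and UAP1, named after their values were seen, were lower, and the median was 0.49. GYS1, glycogen synthase of muscle and most tissues, was at 23.2 FPKM in the knockdown and 2.40 FPKM in the control, a difference of 2.83, and PYGB, brain-type glycogen phosphorylase, differed by 1.40. GYG1 and PYGL differed by 0.75 and 0.71. Among 4 expressed genes of glucose sensing by MondoA, none was higher and 1, ARRDC4, was lower (0.419 FPKM in the knockdown and 2.34 FPKM in the control, named after its values were seen), and the median was -0.04. MLX, its partner, was at -0.13, and MLXIPL at 0.06, a sign that turned under 5 alternatives.

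On the HIF side, 14 of 18 other pathway genes in the table were expressed, with 2 higher, 1 lower and a median of 0.14. Of all expressed genes, 20.9% were higher and 6.83% lower. The other 11 pathway genes lay between the thresholds. The 2 higher genes both act against HIF alpha. HIF1AN, the asparaginyl hydroxylase that blocks its transactivation, was at 10.4 FPKM in the knockdown and 1.35 FPKM in the control, a difference of 2.27. VHL, the substrate receptor of its ubiquitin ligase, was at 10.4 FPKM in the knockdown and 2.10 FPKM in the control, a difference of 1.88. CITED2, which competes with HIF alpha for p300 and is itself a HIF target, was lower, at 15.9 FPKM in the knockdown and 34.0 FPKM in the control, and OS9 differed by -0.22. Of 46 other HIF targets in the table, 30 were expressed, with a median of -0.02, which was above 0 once the trend on GC and length was taken out. Higher were 4 of them, GYS1, ZNF395, HILPDA and STC2, of which the last 2 are named after their values were seen, and 6 were lower. NDRG1, a hypoxia- and stress-inducible gene, was at 22.6 FPKM in the knockdown and 92.8 FPKM in the control. GYS1, described above, and ZNF395, with a difference of 1.72, went the other way. The 4 higher and 6 lower of 30 stand beside 20.9% and 6.83% of all expressed genes. At a difference of 0.5, 6 were higher and 12 lower, beside 40.8% and 16.3% of all expressed genes. The list median minus the all-gene median was -0.32, and -0.51 to -0.10 over the alternatives. Genes of the wider list thus lay on both sides of 0, but the list lay lower than all expressed genes.

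**Figure D5:**
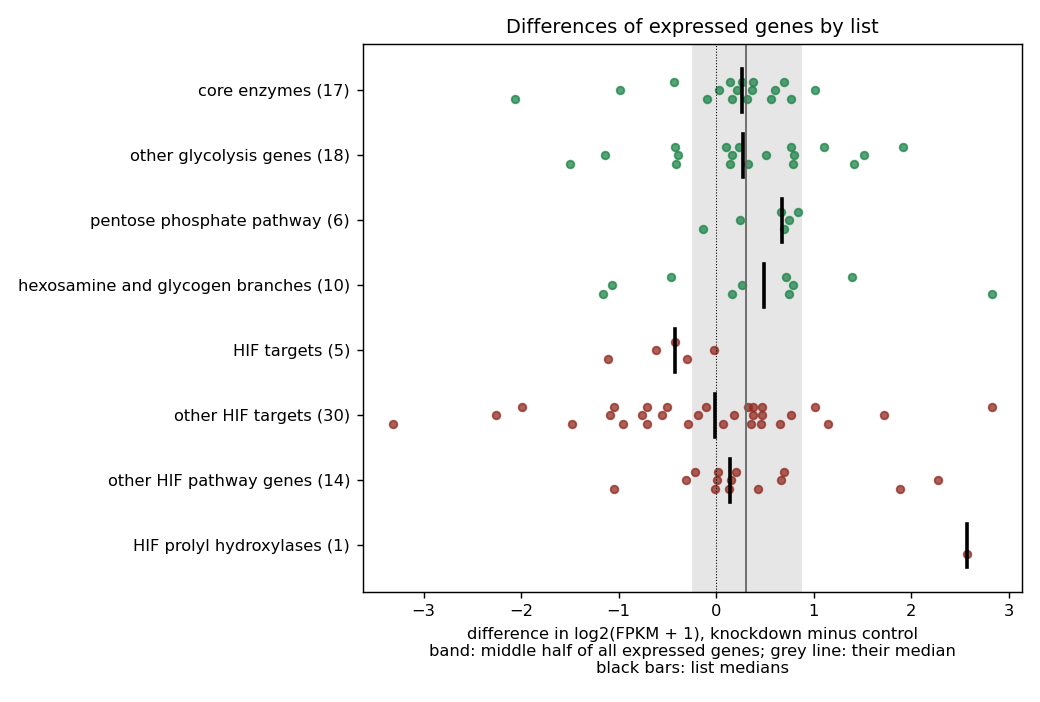
Differences in log2(FPKM + 1), knockdown minus control, of expressed genes in 8 lists (each point a gene, black bars the list medians, number of expressed genes in brackets), with a grey band from the 25th to the 75th percentile of all expressed genes, -0.24 to 0.87. The 5 HIF targets all lie below 0, the other HIF targets spread to both sides of 0, and the core enzymes centre near the median of all genes.

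Base composition moved with the differences. Across the 10130 expressed genes with a GENCODE transcript, the Spearman rho between difference and GC content was 0.15, and the median differences of 4 groups of equal size, from low to high GC, were 0.09, 0.29, 0.44 and 0.41. Genes are not independent replicates and share both libraries, so these values are descriptions. Over the 31 expressed genes described here rho was 0.22, and the median GC content was 53.1% in the core enzymes and 49.1% in the HIF targets. Without the trend on GC and length, the core enzymes had a median of 0.19 and the HIF targets one of -0.42. The differences of P4HA1 and PGAM1 were then below 1 in size.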

How the data were processed

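Messenger RNA of 2 HCT116 libraries was sequenced as paired ends after poly(A) selection, per the labels' protocols. Bowtie 0.12.2, HISAT2 2.0 and StringTie 1.3.0 are named in the submitters' processing notes, with no role or order; the notes also name the mouse build mm8. The table holds human Ensembl identifiers, of which 31659 are in GENCODE 29 (GRCh38) and 69.2% of these have the same position there (15 of the 37 genes reported), so its coordinates are read as GRCh38. The authors deposited 1 table of 31798 rows with raw counts and FPKM values for each library. The counting program, its unit (reads or fragments) and its use of strand were not given in the labels or notes. Counts per FPKM differed between the libraries by a factor of 1.31, as did the total counts. Rows were summed by symbol. No row lacked one.

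The genes and lists were chosen with earlier results of these data known. Named genes are all 37 members, of each other list up to 4 genes with a mean of at least 5 FPKM and the largest differences (at least 1 against the list's median where there is one), SRD5A1, and overlapping rows holding at least 10% of a member's counts. One result under this rule is not reported here. Ratios between isoenzymes within a library carry Wald intervals on log counts. Alternatives changed the pseudocount, the filter, the unit, the scaling (median ratio, TMM from edgeR 4.0.16, upper quartile), the total, the GC and length trend (lowess, span 0.3), and the treatment of duplicate, pseudogene and overlapping rows (the last chosen after seeing the data). GC content and length are those of the longest GENCODE transcript. Steps were tested on simulated data. Python 3.11.15, pandas 2.3.3, scipy 1.17.1, statsmodels 0.14.6 and R 4.3.3 were used.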

Additional observations from a re-analysis of the deposited data

How the results depend on the processing

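No paired analysis was possible because there is 1 library per group. Of the 37 genes, 27 kept the sign of their difference under every alternative run on them, and 10 turned it in at least 1: HK1, GPI, PFKL, PFKM, PFKP, TPI1, GAPDH, LDHB, PFKFB2 and EPAS1. None of these 10 was 2-fold apart, and no gene 2-fold apart turned sign. SLC2A1, SLC16A3, EGLN2 and ALDOC were 2-fold apart under every alternative run on them.

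The core enzymes' median of 0.27 was -0.11 with the median ratio set to 1, 0.014 with TMM, -0.12 with upper quartiles set equal, 0.18 with mitochondrially encoded genes left out of the total and 0.19 without the trend on GC and length. The HIF targets' median of -0.43 was -0.79, -0.67 and -0.80 under the first 3 of these. With the genes that the table annotates to KEGG pathways, an alternative chosen after seeing the data, the medians were 0.58 over 42 glycolysis and gluconeogenesis genes and 0.16 over 61 HIF-1 signaling genes. These 2 medians lie closer together than those of the core enzymes and HIF targets under any of the other alternatives that kept the lists as they were. The second has the other sign from the 5 HIF targets, and that set holds signalling genes and glycolytic enzymes beside targets. Minus the all-gene median, the KEGG glycolysis and gluconeogenesis genes were at 0.28 (0.18 to 0.32 over the alternatives). The core enzymes were at -0.03 (-0.19 to 0.24), so the place of glycolysis genes depends on the list. The KEGG HIF-1 signaling genes were at -0.15 (-0.25 to 0.02).

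The 5 higher genes were 3 with the median ratio, with upper quartiles and at a mean of at least 5 FPKM, 4 with TMM, with the smaller total and without the trend on GC and length, 6 with CPM (EGLN1 passing), and 10 at a threshold of 0.5. The 2 lower genes were 4 with a pseudocount of 0.1, CPM, the median ratio, TMM, upper quartiles or the smaller total (SLC2A3 and HK2 passing), 1 without the trend on GC and length, and 6 at 0.5. Over all expressed genes, 75.3% of those 2-fold apart were higher, against 51.7% with the median ratio, 60.3% with TMM and 50.2% with upper quartiles, and the all-gene median of 0.30 was -0.02, 0.08 and -0.03. Except where named, the cause was not tested. The spread between cultures is unknown, and CA9, with 12 counts in the knockdown library, is limited by depth.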
